A study of Mus musculus with 24 samples.

Results

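The 9 genes described here encode transcription factors that set and maintain the identity of sensory neurons in dorsal root ganglia (DRGs): *Isl1* and *Isl2*, *Pou4f1*, *Pou4f2* and *Pou4f3*, *Runx1* and *Runx3*, *Etv1* and *Tlx3*. They were taken by name from the 27398 gene names on an Agilent whole mouse genome array, and all 9 were found, on 14 probes. RNA came from L4 and L5 DRGs of adult male mice in 6 groups of 4 samples, *Nfil3-/-* mice (KO) and their *Nfil3+/+* littermates (WT), each with ganglia of the non-injured side as control or ganglia of the lesioned side at day 2 or day 5 after transection and coaptation of the left sciatic nerve. All mice were on a C57BL/6J background. The *Nfil3* null allele was made from a floxed allele with a Cre driven by the human CMV promoter, so the gene is missing in every cell of the animal and not in neurons alone. The labels call the material DRG neurons, but markers of satellite glia, Schwann cells and macrophages were also well above background, and the samples are whole ganglia. In such samples fewer sensory neurons and less RNA per neuron cannot be told apart.

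In the embryo the LIM-homeodomain factor *Isl1* and the POU-homeodomain factor *Pou4f1* (Brn3a) end the neurogenic programme and start the sensory one in nearly all DRG neurons. *Runx1* and *Runx3* then split the lineages, with *Runx1* in nociceptors and *Runx3* in TrkC-positive proprioceptors, while the ETS factor *Etv1* (Er81) is needed by muscle afferents and the homeodomain factor *Tlx3* belongs to the glutamatergic programme. Most of these genes stay on in the adult ganglion. NFIL3 is a basic leucine zipper repressor that is induced in DRG neurons by nerve injury and binds sites overlapping those of CREB.

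The lesion lowered 8 of the 9 genes at day 5, by 1.43-fold to 2.39-fold, and 7 of the 9 at day 2, in KO and WT mice averaged. The largest changes were in *Etv1* at day 2 and in *Isl2* at day 5, and the smallest that passed the test was in *Tlx3*. *Pou4f2*, the only one of the 9 whose probe was not well above background in every sample, passed at neither time. No gene of the 9 passed the test for a difference between KO and WT in control ganglia, at day 2 or at day 5. Of all gene names 0%, 0.0073% and 0.0109% passed, so hardly any gene on the array did. The tests were from limma, with 1 mean per group over 24 samples and p-values adjusted by the Benjamini-Hochberg method over all 41174 probes, and a gene is called where its adjusted p is under 0.05. Each gene is represented by its brightest probe, and values are log2 intensities after background correction and quantile normalization. Of all 14 probes of these genes, 12 were called at day 5 and 7 at day 2. The second probes of *Pou4f3*, *Runx1* and *Runx3* were not called at day 2, and that of *Runx1* not at day 5 either.

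For comparison, 13% of all gene names were called lower at day 5 and 12.9% at day 2, or 21.7% and 20.9% of the 14555 gene names well above background in all 24 samples, as 8 of the 9 factors were. The median difference of the 9 genes was -0.68 at day 5 and -0.61 at day 2, and that of all gene names was -0.03 and -0.02. The F test over both times called 8 of the 9, against 26.3% of all gene names. Day 5 differed from day 2 for 0 of the 9 (limma, smallest adjusted p = 0.177, with 2 at an unadjusted p under 0.05), against 3.34% of all gene names. Where lesion samples are said below to lie under all controls, the share of all gene names that did so was not computed.

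**Figure D1:**
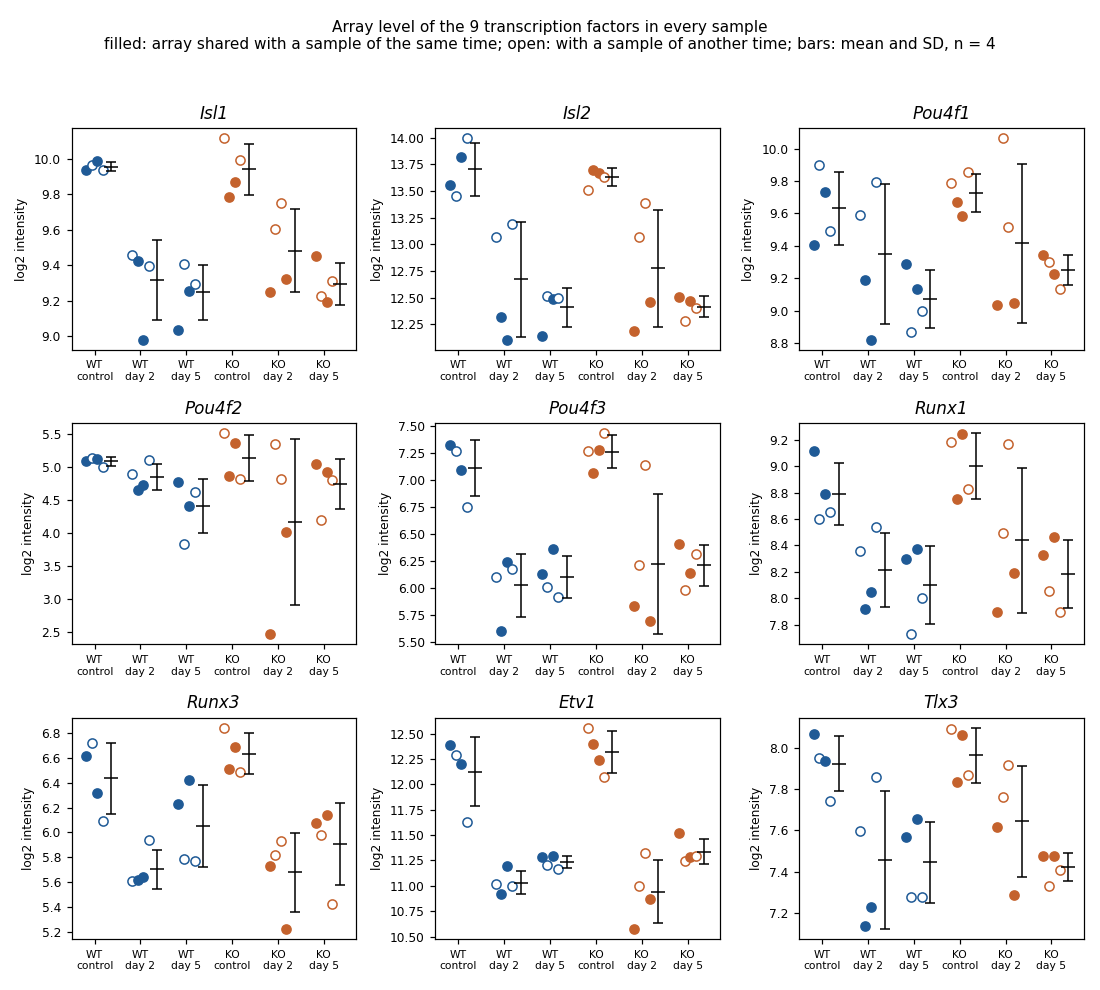
Log2 intensity (vertical axis) of each of the 9 genes in all 24 samples by genotype and time (horizontal axis), with the mean and SD of each group of 4. *Etv1*, *Isl1* and *Isl2* lay below every control in all lesion samples, and for *Pou4f1* the 4 open day 2 points reached into the control range. The share of all gene names that lay below every control was not computed.

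Before the factors themselves, the labels and libraries were checked on genes with a known place in this design. *Nfil3* was 8.73 ± 0.27 (SD, n = 4) in WT control, 10.59 ± 0.18 at day 2 and 10.99 ± 0.20 at day 5. In KO samples its means were 4.47 to 4.71, with 5 of 12 samples well above background. The sample labelled KO control replicate 4 stood apart, at 7.66 where the remaining KO controls were at 2.99 to 4.39, and 1 of its label fields gives day 5 where its title gives control. It was kept as a control. Without it the counts of the 9 factors called were again 8 at day 5 and 7 at day 2, and in KO mice alone 7 at day 5 and 4 at day 2. The injury marker *Atf3*, a leucine zipper factor induced in axotomized neurons, was 13.02 to 14.19 in all lesion samples. In controls it was 7.31 to 7.76 in the 4 that shared an array with another control, but 9.11 to 10.08 in the 4 that shared an array with a lesion sample. The share of probes well above background ran from 54.5% to 72.3% over the samples, and saturated spots numbered 0.

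*Isl1*, which marks postmitotic sensory neurons in general, was measured by 1 probe (chr13:117088774-117088833, minus strand, in the mm9 build that the array annotation uses) that was printed on 10 spots of each array. In WT mice the controls were 9.94, 9.97, 9.99 and 9.94, the day 2 samples 9.46, 9.43, 8.98 and 9.40, and the day 5 samples 9.04, 9.41, 9.26 and 9.29. The KO values were 10.12, 9.79, 9.87 and 9.99 in control, 9.25, 9.60, 9.75 and 9.32 at day 2, and 9.45, 9.23, 9.19 and 9.31 at day 5. All 16 lesion samples were lower than all 8 controls, and the 2 KO day 2 samples nearest to the controls were replicates 2 and 3. The difference was -0.55 at day 2 (limma, adjusted p = 0.000103, SE, the standard error, 0.09) and -0.68 at day 5 (adjusted p = 6.9e-06). The spots of the probe differed on an array by an SD of 0.163 at the median.

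*Isl2*, the close relative of *Isl1* that is found in subsets of sensory and motor neurons, was measured at chr9:55393922-55393981 (plus strand, mm9). Its WT values were 13.56, 13.45, 13.82 and 13.99 in control, 13.07, 12.32, 12.11 and 13.19 at day 2, and 12.14, 12.52, 12.49 and 12.50 at day 5. In KO mice they were 13.51, 13.70, 13.67 and 13.63, then 12.18, 13.07, 13.39 and 12.46, and then 12.28 to 12.51. No lesion sample overlapped with the controls, but the day 2 samples of each genotype fell into a higher and a lower pair, and both higher pairs (WT replicates 1 and 4, KO replicates 2 and 3) shared their arrays with samples of another time. *Isl2* fell 1.92-fold at day 2 (log2 difference -0.94, limma, adjusted p = 0.000301, SE 0.17) and 2.39-fold at day 5 (-1.25, adjusted p = 9.7e-06).

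The *Isl2* promoter is shown because it was the only promoter found for these genes that held a full CREB site (CRE). RefSeq promoters of GRCm38.p6, from 250 bases before to 50 bases after an annotated start, were found for 8 of the 9 genes (11 starts). The letters TGACGTCA, which are the same on both strands, were in 1.79% of all 32851 promoters. The 250 bases before the *Isl2* start are on chromosome 9 (chr9:55540899-55541148, plus strand), with the CRE in capitals. It begins 11 bases before the start.
Isl2 promoter: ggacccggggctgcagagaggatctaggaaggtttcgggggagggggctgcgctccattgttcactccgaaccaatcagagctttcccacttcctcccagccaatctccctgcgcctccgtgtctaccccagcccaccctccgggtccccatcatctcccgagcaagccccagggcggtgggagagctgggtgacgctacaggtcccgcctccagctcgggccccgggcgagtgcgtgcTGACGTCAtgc
The NFIL3 letters TTACGTAA and TTATGTAA (or TTACATAA) were in 0 of the 11 promoters, against 0.119% and 0.938% of the table. The AP-1 letters TGANTCA were also in 0 of the 11, against 7.81% of the table. These are matches of letters in a short window and say nothing of binding. The *Isl2* level was 13.70 ± 0.25 in WT and 13.63 ± 0.08 in KO controls (SD, n = 4).

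The Pou4f genes encode the Brn3 factors, of which *Pou4f1* (Brn3a) is the broad sensory one, while *Pou4f2* (Brn3b) and *Pou4f3* (Brn3c) are best known in the retina and the inner ear. The brightest probes of *Pou4f1* and *Pou4f2* lie in the coding sequence, in the part for the POU region, and are shown because the 3 genes are close relatives and the signal rests on these letters. They are on chromosome 14 (chr14:104865021-104865080, minus strand) and chromosome 8 (chr8:80958843-80958902, minus strand) in mm9.
Pou4f1 probe: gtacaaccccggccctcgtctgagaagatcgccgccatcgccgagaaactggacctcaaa
Pou4f2 probe: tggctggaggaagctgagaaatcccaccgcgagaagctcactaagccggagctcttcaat
Both are 60 bases long, with 60.0% and 55.0% G or C.

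*Pou4f1* was 9.40, 9.90, 9.73 and 9.49 in WT controls and 9.79, 9.67, 9.59 and 9.85 in KO controls. At day 5 the WT samples were 9.29, 8.87, 9.13 and 9.001 and the KO samples 9.35, 9.30, 9.23 and 9.14, all below the lowest control. Day 2 was spread more widely, at 9.59, 9.19, 8.82 and 9.80 in WT mice and 9.03, 10.06, 9.52 and 9.05 in the KO. Of these, 4 of 8 lay within or above the control range, namely WT replicates 1 and 4 and KO replicates 2 and 3, and each of these shared its array with a sample of another time. *Pou4f1* fell 1.43-fold at day 5 (log2 difference -0.52, limma, adjusted p = 0.0131, SE 0.15), while the day 2 difference of -0.30 did not pass (adjusted p = 0.17). A second, dimmer probe gave -0.60 (adjusted p = 0.00763) at day 5 and -0.44 (adjusted p = 0.055) at day 2, with the same 4 day 2 samples not below the controls. Without KO day 2 replicate 2 the brightest probe passed at day 2 as well.

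*Pou4f3* was called at both times on its brightest probe, which the array annotation assigns to a cDNA clone and not to the RefSeq transcript of its other probe. Its controls ran from 6.75 to 7.43 with a median of 7.27, the day 2 samples from 5.60 to 7.14 with a median of 6.14, and the day 5 samples from 5.92 to 6.41 with a median of 6.13. Every lesion sample but KO day 2 replicate 3, at 7.14, was below every control. The difference was -1.06 at day 2 (limma, adjusted p = 7e-05, SE 0.16) and -1.03 at day 5 (adjusted p = 7.72e-05). The other *Pou4f3* probe gave smaller differences, -0.31 at day 2 (adjusted p = 0.127) and -0.55 at day 5 (adjusted p = 0.00571), and only the latter passed, so the day 2 call rests on the brightest probe alone.

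*Pou4f2* was close to the detection limit. The probe shown above was well above background in 17 of 24 samples, and only 1 of 4 at WT day 5. Controls were 4.82 to 5.51, day 2 samples 2.47 to 5.34 and day 5 samples 3.83 to 5.04. The lowest value, 2.47 in KO day 2 replicate 1, was not well above background. The differences were -0.61 at day 2 (limma, adjusted p = 0.141, SE 0.28) and -0.54 at day 5 (adjusted p = 0.208), neither of which passed. The day 5 difference passed when KO day 2 replicate 1 was left out, and the day 2 difference when KO day 2 replicate 2 was. A second probe, well above background in 11 of 24 samples, gave -0.48 at day 2 (adjusted p = 0.173) and -0.73 at day 5 (adjusted p = 0.0288), of which the latter passed.

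**Figure D2:**
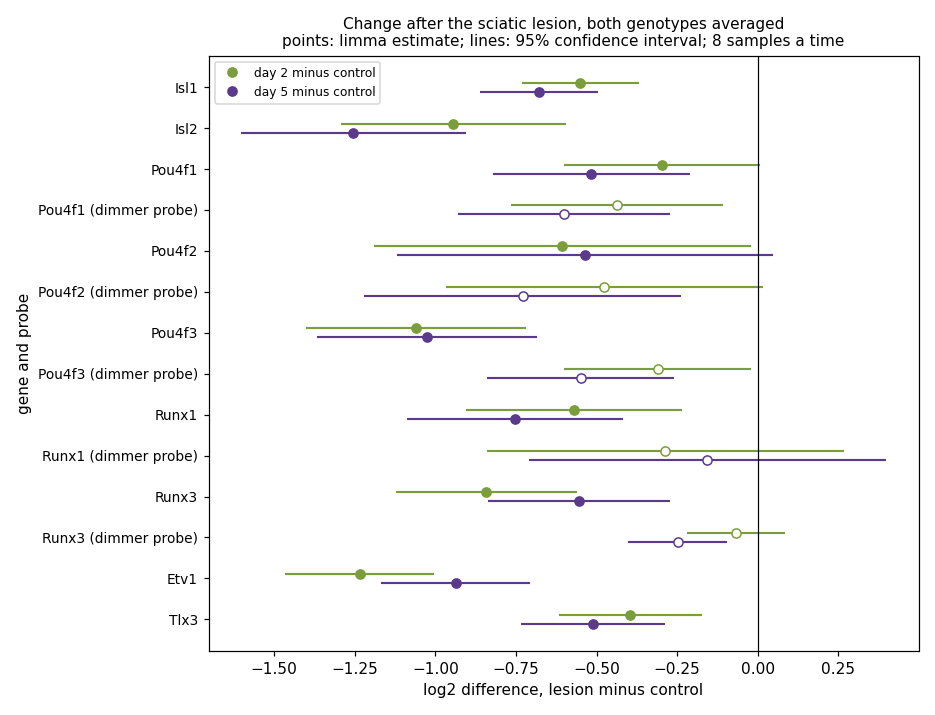
Log2 difference between lesion and control with its 95% confidence interval (horizontal axis) for each of the 14 probes (vertical axis), at day 2 and day 5, both genotypes averaged. All 14 estimates lay below 0 at both times, from -1.25 for *Isl2* at day 5 to -0.07 for the dimmer *Runx3* probe at day 2.

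*Runx1* is the RUNX factor of nociceptors, where it directs the choice between peptidergic and nonpeptidergic fates. Its brightest probe (chr16:92604413-92604472, minus strand, mm9) was 9.12, 8.60, 8.79 and 8.65 in WT controls and 9.19, 8.75, 9.25 and 8.83 in KO controls. At day 5 it was 8.29, 7.73, 8.37 and 7.999 in WT mice and 8.33, 8.05, 8.47 and 7.90 in the KO. At day 2 it was 8.36, 7.92, 8.05 and 8.54 in WT mice and 7.89, 8.497, 9.17 and 8.19 in the KO. All lesion samples but KO day 2 replicate 3, at 9.17, were below all controls. *Runx1* fell 1.48-fold at day 2 (log2 difference -0.57, limma, adjusted p = 0.0139, SE 0.16) and 1.69-fold at day 5 (-0.75, adjusted p = 0.00142).

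The second *Runx1* probe showed no called change. Its letters lie in the coding sequence and span 30453 bases of the genome (chr16:92614003-92644455, minus strand, mm9), so they cross a splice junction. It is shown because the 2 probes of this gene gave different answers.
Runx1 junction probe: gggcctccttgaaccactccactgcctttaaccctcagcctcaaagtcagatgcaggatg
On this probe WT control replicate 4 was 9.06 and WT day 5 replicate 2 was 8.79, and these 2 samples shared 1 array. The other 22 samples were 6.71 to 7.34. The differences were -0.29 (limma, adjusted p = 0.515) at day 2 and -0.16 (adjusted p = 0.769) at day 5, with a 95% interval of -0.71 to 0.40 at day 5. Without that array they were -0.05 (adjusted p = 0.782) and -0.14 (adjusted p = 0.401), and the standard error at day 5 was 0.10 in place of 0.27.

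*Runx3*, the factor of proprioceptors, had its lowest mean at day 2. Controls of the brightest probe (chr4:134732605-134732664, plus strand, mm9) were 6.61, 6.72, 6.32 and 6.09 in WT mice and 6.84, 6.51, 6.69 and 6.49 in the KO. At day 2 they were 5.61, 5.62, 5.65 and 5.94, and 5.73, 5.82, 5.94 and 5.23, all below every control. At day 5 the values were 6.23, 5.79, 6.42 and 5.77 in WT mice and 6.08, 5.98, 6.14 and 5.43 in the KO, and 3 of these 8 were within the control range. The difference was -0.84 at day 2 (limma, adjusted p = 0.000107, SE 0.13) and -0.55 at day 5 (adjusted p = 0.00428), and that of 0.29 between day 5 and day 2 did not pass (adjusted p = 0.319). The second *Runx3* probe gave -0.07 at day 2 (adjusted p = 0.587) and -0.25 at day 5 (adjusted p = 0.0166), so that on this probe only day 5 passed.

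*Runx1* and *Runx3* promoters are shown because both held a pair of RUNX letters in the same arrangement. The RUNX letters ACCACA, searched on both strands, were in 16.8% of all promoters, and at least 2 copies in 1.81%. Among the 11 promoters of the 9 genes, 1 each of *Runx1*, *Runx3* and *Etv1* held the letters, and those of *Runx1* and *Runx3* held 2 copies in the same spacing. The 30 bases around them are shown with the copies in capitals, for *Runx1* beginning 20 bases after the start (chr16:92826025-92826054, minus strand) and for *Runx3* before the start (chr4:135120503-135120532, plus strand), in GRCm38.p6.
Runx1: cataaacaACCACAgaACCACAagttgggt
Runx3: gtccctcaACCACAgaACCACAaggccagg
In the *Runx3* promoter the first copy begins 134 bases before the start.

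*Etv1*, an ETS factor required for the central connections of muscle afferents, had the smallest adjusted p of the 9 at both times (probe at chr12:39592634-39592694, plus strand, mm9). The WT controls were 12.39, 12.29, 12.20 and 11.63, the day 2 samples 11.02, 10.92, 11.19 and 10.997, and the day 5 samples 11.28, 11.20, 11.29 and 11.16. The KO controls were 12.56, 12.39, 12.24 and 12.08, the day 2 samples 10.57, 10.996, 11.32 and 10.87, and the day 5 samples 11.52, 11.24, 11.28 and 11.29. No lesion sample reached a control, although WT control replicate 4, at 11.63, was close to the highest of them. *Etv1* fell 2.35-fold at day 2 (log2 difference -1.24, limma, adjusted p = 6.71e-08, SE 0.11) and 1.91-fold at day 5 (-0.94, adjusted p = 2.22e-06). The difference of 0.30 between day 5 and day 2 did not pass (adjusted p = 0.177).

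*Tlx3*, a homeodomain factor of sensory and dorsal spinal neurons that favours the glutamatergic fate, was measured by 1 probe in the homeobox (chr11:33102440-33102499, minus strand, mm9). It is shown because the signal of the gene rests on this single stretch of a conserved domain.
Tlx3 probe: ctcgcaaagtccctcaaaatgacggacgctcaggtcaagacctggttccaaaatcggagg
Controls were 8.07, 7.95, 7.94 and 7.74 in WT mice and 8.10, 7.83, 8.07 and 7.87 in the KO. The day 5 samples, at 7.57, 7.28, 7.66 and 7.28 in WT mice and 7.48, 7.33, 7.47 and 7.41 in the KO, were all below the controls. At day 2 the values were 7.60, 7.14, 7.23 and 7.86, and 7.61, 7.76, 7.92 and 7.29, with 3 of 8 in the control range, again WT replicate 4 and KO replicates 2 and 3. The difference was -0.39 at day 2 (limma, adjusted p = 0.0105, SE 0.11) and -0.51 at day 5 (adjusted p = 0.00117).

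The levels of the day 2 samples varied with what shared their arrays. Each of the 12 arrays carried 2 samples, 1 per dye, and 6 of them paired samples of different times. Against controls of the same kind of array, the day 2 differences of the 9 genes were -0.58 to -1.42 where both samples of the array were from day 2, and -0.02 to -1.05 where the other sample was a control or from day 5. *Isl2* differed by -1.42 and -0.47, *Runx1* by -0.96 and -0.18, and *Pou4f1* by -0.58 and -0.02. Averaged over 8 genes, leaving out *Pou4f2*, the 4 day 2 samples on same-time arrays were at -0.998 to -0.976 relative to the control mean, and those on mixed arrays at -0.66 to -0.24, with KO replicate 3 nearest to the controls. At day 5 the order was not the same, with -0.31 to -1.29 on same-time and -0.59 to -1.22 on mixed arrays. The lesion differences of *Atf3* and of *Sprr1a*, a cornified envelope protein gene that is induced in injured neurons, were smaller on mixed arrays at both times, for *Atf3* 3.87 against 6.38 at day 2 and 4.35 against 6.30 at day 5, and for *Sprr1a* 3.18 against 7.98 and 5.39 against 9.73. For *Atf3* the controls differed more between the kinds of array (means 9.57 on mixed and 7.54 on same-time arrays) than the day 2 samples did (13.44 and 13.92). For *Isl2* the day 2 samples differed (13.18 and 12.27) and the controls hardly did (13.65 and 13.69). The part of array sharing in these differences was not tested.

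**Figure D3:**
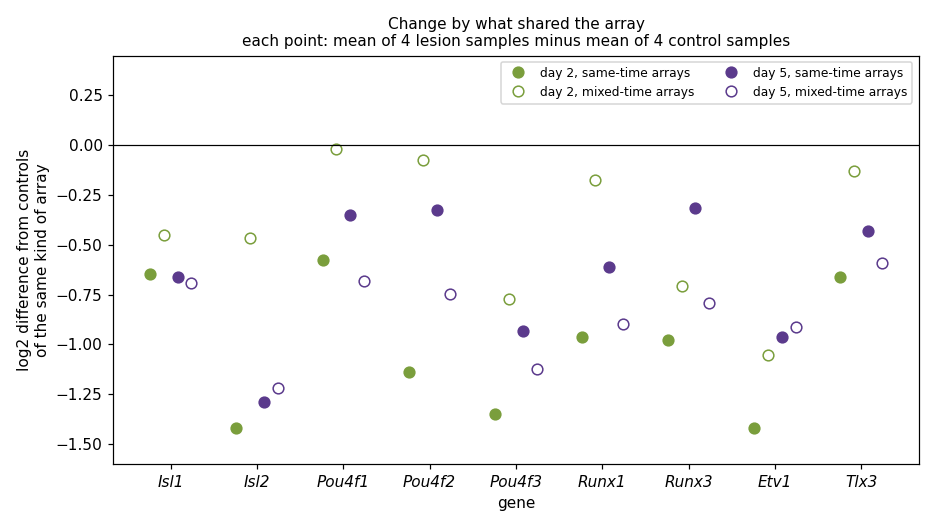
Log2 difference from controls on the same kind of array (vertical axis) for each gene (horizontal axis), by time and by whether both samples of an array were of the same time, each point from 4 lesion and 4 control samples. At day 2 all 9 open points (mixed arrays) lie above the filled ones, and at day 5 only those of *Isl2* and *Etv1* do.

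The 4 day 2 samples on mixed arrays were those nearest to the controls, and leaving them out was chosen after seeing these values. A higher count without them is therefore not separate support for the lesion change. Under this setting 9 of the 9 genes were called at day 2, against 13.7% of all gene names called lower. For *Pou4f2*, the ninth, 3 of the 4 day 2 values that remained were not well above background. With the 4 controls that shared an array with a lesion sample left out, 5 were called at day 2 (*Isl1*, *Isl2*, *Pou4f3*, *Runx3* and *Etv1*) and 7 at day 5, all but *Pou4f1* and *Pou4f2*, against 8.22% and 8.65% of all gene names. Within each of the 3 slides, and within each dye, the means of all 9 genes were below the control mean at both times. The share of all gene names with this direction was not computed. Within slides the day 5 difference of *Isl2* was -1.33 to -1.18 and that of *Etv1* -1.05 to -0.89. At day 2 the slide with only 1 day 2 sample (KO replicate 3) gave -0.19 for *Isl2* and -1.07 for *Etv1*. That sample hardly differed for *Runx1* (-0.01) and *Pou4f1* (-0.08). It gave -0.15 for *Pou4f3*, -0.16 for *Tlx3*, -0.22 for *Isl1*, -0.50 for *Pou4f2* and -0.78 for *Runx3*.

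In each genotype on its own, all 9 lesion differences were negative at both times. In WT mice 5 of the 9 were called at day 2 (*Isl1*, *Isl2*, *Pou4f3*, *Runx3* and *Etv1*), against 6% of all gene names called lower, and 5 at day 5 (*Isl1*, *Isl2*, *Pou4f3*, *Etv1* and *Tlx3*), against 7.35%. In KO mice the same 5 were called at day 2, against 6.36%, and 7 at day 5, all but *Pou4f1* and *Pou4f2*, against 6.62%. At day 5 *Isl2* differed by -1.30 in WT and -1.21 in KO mice, *Etv1* by -0.89 and -0.98, *Pou4f3* by -1.01 and -1.05, and *Isl1* by -0.71 and -0.65. *Runx1* was just outside the threshold in WT mice at day 5 (-0.69, limma adjusted p = 0.0504) and inside it in KO mice (-0.82, adjusted p = 0.022). The lesion change differed between genotypes for 0 of the 9 by the interaction test, against 0% of all gene names. The KO count at day 5 was 4 without KO control replicate 1 or without KO day 5 replicate 4. The KO count at day 2 was 3 when KO day 2 replicate 1 or 4 was dropped. Without the controls that shared an array with a lesion sample, the KO counts were 2 at each time. The share of all gene names called lower in KO mice was then 2.49% at day 2 and 2.41% at day 5.

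The comparison of KO and WT asks whether loss of NFIL3 changes these levels. For 0 of the 9 genes did the difference pass in control ganglia, at day 2 or at day 5 (limma, adjusted p = 1 for each gene, and 0 at an unadjusted p under 0.05). Of all gene names 0% passed in control, 0.0073% at day 2 and 0.0109% at day 5. The 95% intervals give the size that remains possible. On the brightest probes of the 8 genes other than *Pou4f2* they lay within -0.57 and 0.69 in control, within -0.42 and 0.70 at day 2, and within -0.54 and 0.61 at day 5, on the log2 scale. The second *Runx1* probe had wider intervals, of -1.35 to 0.22 in control, -0.81 to 0.76 at day 2 and -1.27 to 0.30 at day 5. Among the brightest probes the narrowest were those of *Isl1*, with a difference of 0.05 at day 5 and an interval of -0.21 to 0.31. *Pou4f2* differed by -0.68 at day 2, with an interval of -1.51 to 0.14. The difference was positive, higher in KO, for 7 of the 9 in control, 6 at day 2 and 7 at day 5. The interaction of time and genotype passed for 0 of the 9 (limma, smallest unadjusted p = 0.197) and for 0% of all gene names. *Nfil3* itself, at 8.73 ± 0.27 in WT and 4.71 ± 2.05 in KO controls (SD, n = 4), was thus called neither in control nor for the interaction. These tests could therefore miss large differences, and the counts of 0 do not show that the 9 genes are unaffected.

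**Figure D4:**
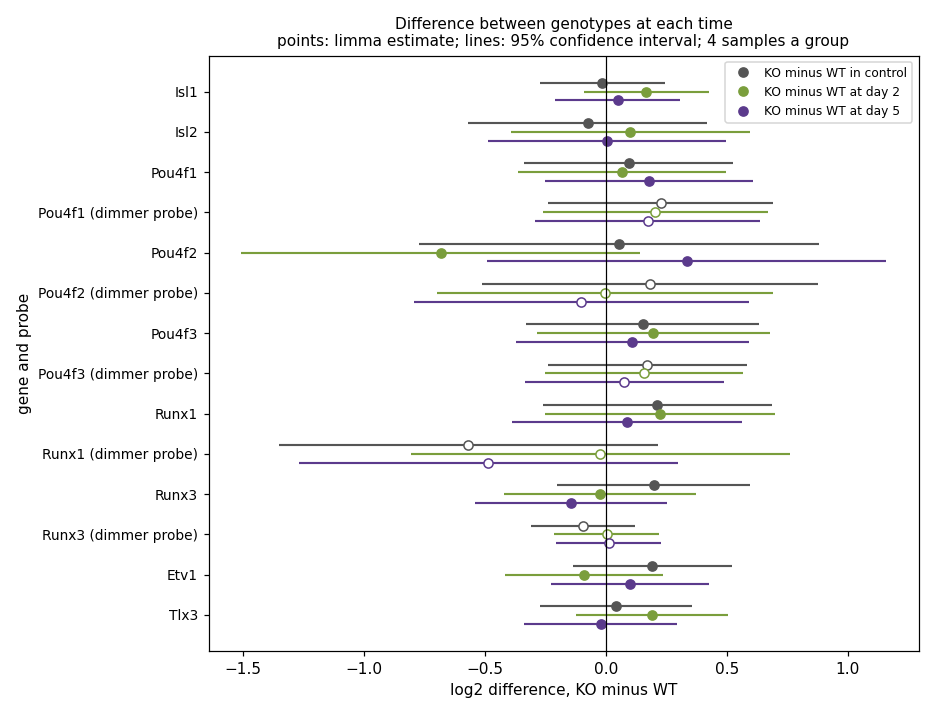
Log2 difference between KO and WT with its 95% confidence interval (horizontal axis) for each of the 14 probes (vertical axis) in control, day 2 and day 5 samples of 4 against 4. Every interval includes 0, and the widest are those of the 2 *Pou4f2* probes and of the dimmer *Runx1* probe.

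Other transcription factors of the sensory lineage were called in both directions. Of 29 listed, 28 were measured, and 8 were lower and 3 higher at day 5, with a median of -0.21. Among all gene names 13% were called lower, and the share called higher was not computed. *Bcl11b* (-0.83, limma adjusted p = 0.000197), a zinc finger gene, and *Six4* (-0.79, adjusted p = 0.00286), a homeobox gene of early sensory neurons, had the largest falls among those that passed. *Runx2*, the third RUNX gene, was higher by 0.42 (adjusted p = 0.000782). *Runx2* thus moved the other way from *Runx1* and *Runx3*. At day 2, 7 were lower and 1 higher, against 12.9% of all gene names called lower.

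Cofactors of the 9 showed no common direction. Of 9 listed, 2 were lower and 1 higher at day 5, with a median of 0.0031. Among all gene names 13% were called lower, or 21.7% of those well above background in all samples. For a list of this size the count lower is close to that share. *Ldb2*, which bridges LIM-homeodomain proteins such as ISL1 and ISL2, fell by 1.10 (limma adjusted p = 1.02e-05). *Cbfb*, the shared partner of the RUNX proteins, fell by 0.23 (adjusted p = 0.0271).

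Genes that mark the neuron types in which the factors act changed as well. Beside the counts below, 13% of all gene names were called lower at day 5 and 12.9% at day 2. Of 17 nociceptor genes measured of 20 listed, 14 were lower and 1 higher at day 5, with a median of -1.02. *Scn11a*, the sodium channel Nav1.9, fell by 1.404 (limma adjusted p = 1.1e-05) and *Gfra2*, the neurturin receptor subunit, by 1.32 (adjusted p = 1.53e-05), whereas the neuropeptide gene *Adcyap1* (PACAP) rose by 1.43 (adjusted p = 4.43e-11). Of 12 mechanoreceptor and proprioceptor genes, 5 were lower and 1 higher at day 5, with a median of -0.36, and 8 were lower at day 2. *Necab2* fell by 1.30 (adjusted p = 5.13e-06) and *Calb1* by 0.92 (adjusted p = 3e-04) at day 5, and *Spp1*, which macrophages also express, rose by 0.59 (adjusted p = 0.0197).

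**Figure D5:**
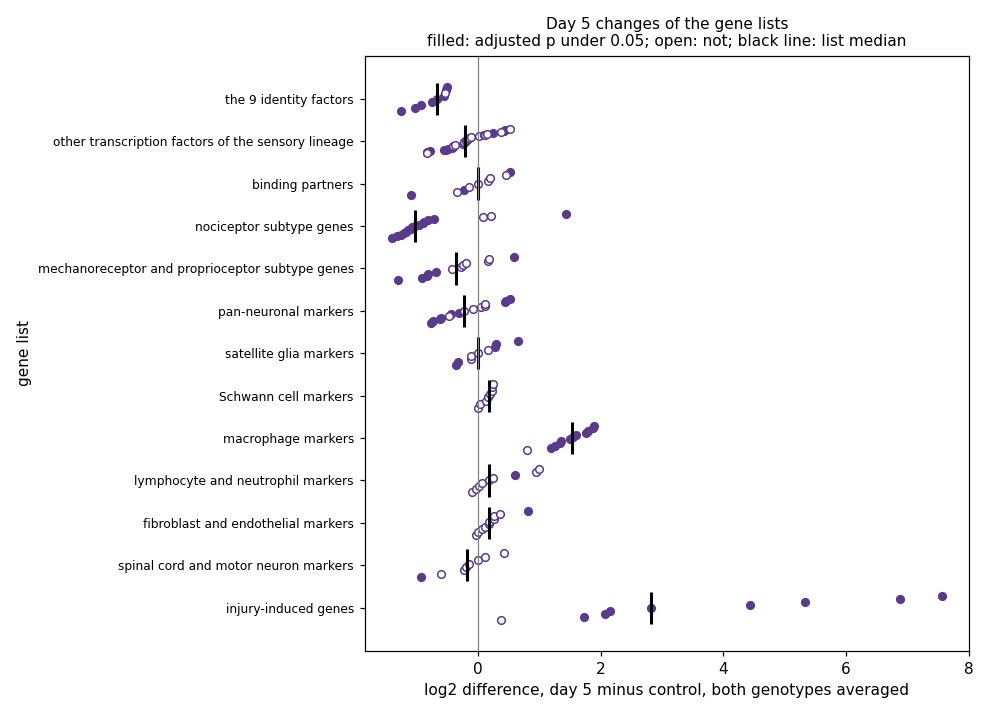
Log2 difference between day 5 and control, both genotypes averaged (horizontal axis), of each measured gene of 13 lists (vertical axis), with the list median as a line and filled points for an adjusted p under 0.05. The 9 identity factors (median -0.68) lie between the nociceptor genes (-1.02) and the pan-neuronal markers (-0.23), and macrophage (1.53) and injury-induced genes (2.82) lie on the other side of 0.

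Markers of the cell types in the ganglion moved with the lesion too. Beside the counts below, 13% of all gene names were called lower at day 5, or 21.7% of those well above background in all samples. The share called higher was not computed. Of 15 pan-neuronal markers, 6 were lower and 3 higher at day 5, with a median of -0.23. *Snap25* fell by 0.77 (limma adjusted p = 4.57e-06) and *Rbfox3* (NeuN) by 0.73 (adjusted p = 3.97e-05), while *Stmn2*, which is induced in growing axons, rose by 0.52 (adjusted p = 2.41e-05) and *Tubb3* by 0.45 (adjusted p = 1.32e-06). Of 12 macrophage markers, 11 were higher at day 5 and 5 at day 2, with *Adgre1* (listed as *Emr1*, a surface antigen of macrophages) higher by 1.89 (adjusted p = 5.87e-08) and *Mrc1* by 1.87 (adjusted p = 4.77e-07). Their mean log2 level was 7.08 to 7.68 in WT controls and 8.78 to 9.05 at WT day 5, and 7.09 to 7.62 and 8.60 to 8.87 in KO mice. Schwann cell markers gave 0 calls of 8 at day 5 and 2 higher at day 2. Satellite glia markers were mixed, with 3 of 9 higher (*Glul* by 0.65, adjusted p = 1.02e-06, and *Cdh19* by 0.30, adjusted p = 0.041) and 2 lower (*Fabp7* fell by 0.36, adjusted p = 0.0194, and *Gja1* fell by 0.33, adjusted p = 0.0105) at day 5. Of 9 lymphocyte and neutrophil and of 10 fibroblast and endothelial markers, 1 each was higher at day 5 (*Nkg7* by 0.60 and *Lum* by 0.81). Of 8 spinal cord and motor neuron markers 1 was lower (*Aqp4* fell by 0.92), and only 1 of the 8 was well above background in all samples. The part of these shifts in the change of the 9 factors was not tested. Of 9 injury-induced genes 8 were higher at day 5, led by *Sprr1a* (7.56) and *Npy* (6.88). No gene of any list was called between genotypes or for the interaction.

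Several genes followed 8 of the 9 factors closely across samples, and *Pou4f2* was left out here. Pearson's r over the 24 samples was computed against 14484 other gene names well above background in all samples, and it contains the lesion difference itself. Nearest to *Etv1* were *Lcp1* (r = 0.986), *Fam19a2* (0.976) and the sodium channel gene *Scn8a* (0.975), and nearest to *Isl2* were the transcript AK047066 (0.983), *Mal2* (0.983) and the homeobox gene *Pknox2* (0.981). *Isl1* was followed by *Ogfrl1* (0.963), *Pou4f3* by 6430573F11Rik (0.971) and *Tlx3* by *Tex9* (0.947). For *Runx1* the first was *Cacna1h* (0.959), the T-type calcium channel Cav3.2 of sensory neurons. For *Pou4f1* it was *Prrxl1* (0.923), which encodes the paired homeodomain protein DRGX of nociceptive neurons, and for *Runx3* *Ldoc1l* (0.941), ahead of *Six4* (0.927). Each of these nearest genes was called lower at day 5, and all but *Prrxl1* (-0.26, limma adjusted p = 0.108) also at day 2. Among gene names well above background in all samples, 21.7% were called lower at day 5 and 20.9% at day 2. Since r contains the lesion difference, such calls follow largely from the choice of genes and are not separate support.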

How the data were processed

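RNA of 24 samples was hybridised on 12 two-colour arrays on 3 slides, each dye channel holding a different sample and used as a single colour. The authors scanned the arrays and deposited linear spot intensities and quality flags from Agilent Feature Extraction 10.7.3.1 (45018 spots, of which 43379 were not controls). From the mean foreground and median background intensities, Edwards background correction was applied, control spots were dropped, spots marked as outliers were set to missing (417 probe values, 0 of the 9 genes), channels were quantile-normalized, log2 was taken and spots of a probe were averaged. Groups were compared with limma 3.58.1 (statmod 1.5.0 and the data.table package, version 1.17.8) in R 4.3.3, with 1 mean per group over all samples and Benjamini-Hochberg adjustment over 41174 probes. The brightest probe stood for a gene. Confidence intervals are at 95%, and the number of arrays limits the precision. The study states 4 independent replicates per condition.

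The members and gene lists were chosen with earlier results of these data known. Genes named were the 9 members, *Nfil3*, *Atf3*, for each list up to 2 with the largest rise and 2 with the largest fall at day 5 among those passing, and the 3 genes most like each member but *Pou4f2*, of which the text gives the nearest. *Sprr1a* was also used beside *Atf3*. Some genes that this rule names are not reported here. Alternatives changed the foreground, background, normalization, outlier and probe rules, the deposited processed signals (linear intensity, log2 minus the 75th percentile of a channel), blocks for slide, dye, array, array partner and replicate number, and left out each sample in turn. Scripts were tested on simulated data. Promoters came from RefSeq (GRCm38.p6), and probe positions from the deposited annotation (mm9). Values of samples with the same replicate number gave no sign of pairing. The study does not state whether control and lesion ganglia came from the same mice, and the tests treat them as independent.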

Additional observations from a re-analysis of the deposited data

Results flagged for a closer look

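In 4 of 84 groups of 4 samples (14 probes in 6 groups), 1 sample lay far from the other 3 by Dixon's criterion, where chance gives about 5% of groups. *Isl1* was 8.98 in WT day 2 replicate 3, against 9.40 to 9.46 in the other samples of its group. *Isl2* was 12.14 in WT day 5 replicate 1, below the other WT day 5 samples. The second *Runx1* probe was 9.06 in WT control replicate 4, whose array also held the high value of WT day 5 replicate 2. *Runx3* was 5.94 in WT day 2 replicate 4, above the other samples of its group, which were 5.61 to 5.65.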

How the results depend on the processing

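Over 41 settings the number of the 9 genes called in both genotypes averaged was 5 to 9 at day 2 and 7 to 9 at day 5, and no difference changed sign among those called. With single samples left out it was 7 to 9 at day 2 and 8 to 9 at day 5. The counts by genotype were less stable. With single samples left out they were 4 to 6 in WT mice at each time, 3 to 6 in KO mice at day 2 (3 without KO day 2 replicate 1 or 4) and 4 to 7 at day 5 (4 without KO control replicate 1 or KO day 5 replicate 4). The next alternatives were chosen after seeing the data. With controls on arrays shared with a lesion sample left out, 3 were called in WT at day 2. In KO, 2 were called at day 2 and 2 at day 5. The shares of all gene names called lower were then 2.31%, 2.49% and 2.41%. With day 2 samples on mixed arrays left out, 8 were called in WT and 9 in KO at day 2, against 7.24% and 9.43%. Apart from the main setting and the alternatives chosen after seeing the data, the share of all gene names was not computed for any setting. No member passed between genotypes, for the interaction or between day 5 and day 2 in any of the settings. The cause of these shifts was not tested.

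Samples with the same replicate number did not deviate together (median r = 0.0579 over 60 pairs, 27 over 0.1), whereas samples of the same array did (median r = 0.432 over 12 pairs, 11 over 0.1), although the tests treat the 24 samples as independent. With array as a random block (consensus correlation 0.267), 7 genes were called at day 2, 8 at day 5, 5 in WT at day 2, 7 in WT at day 5, 5 in KO at day 2, 7 in KO at day 5, and 0 between genotypes or for the interaction. With the replicate number as a block, 7 genes were called at day 2, 8 at day 5, 6 in WT at each time, 5 in KO at day 2 and 7 in KO at day 5, 7 by the F test over both times, and 0 between genotypes or for the interaction. For *Pou4f2*, the gene with signal nearest to background, the difference at day 5 ran from -0.75 to -0.13 over the settings. That of *Pou4f3* ran from -1.09 to -0.56, of *Runx3* from -0.62 to -0.26 and of *Runx1* from -0.83 to -0.45. For the remaining genes it was -1.02 to -0.89 (*Etv1*), -0.71 to -0.61 (*Isl1*), -1.30 to -1.18 (*Isl2*), -0.56 to -0.44 (*Pou4f1*) and -0.55 to -0.36 (*Tlx3*).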
